A study of Mus musculus with 72 samples.

Results

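RNA-seq read counts of mouse liver were used to ask which genes carried a 12 h component, that is a change with 2 peaks a day, on each of 2 diets, and whether that component differed between the diets. All 36 liver libraries were used, of 72 in the series; the other 36 came from the suprachiasmatic nucleus (SCN), the seat of the central circadian clock in the hypothalamus. The mice were C57BL/6, 8 to 12 weeks old per the growth protocol, and were fed at will for 11 days, either with a diet deficient in methionine and choline (MCD) or with an isocaloric control diet. They lived in a light-dark cycle for 10 days and in constant darkness on the last day, so every group shared that release into darkness. Liver was taken at 6 circadian times (CT), CT00, CT04, CT08, CT12, CT16 and CT20. Each of the 12 groups of diet and time held 3 libraries, 2 labelled male (numbers 1 and 2) and 1 labelled female (number 3), which makes 18 libraries per diet. Both males of the control diet at CT08 carry the same column name without a number and are called a and b. Whether each library is a mouse of its own is not in the labels, so p-values measure the spread between these samples, which may be technical in part.

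The liver libraries held 52.6 to 86.7 M counts (median 64.4 M). Hepatocyte markers summed to 67544 CPM or more in every library (CPM, counts per 1 M counts after scaling of the library sizes). Markers of lymphocytes and neutrophils summed to at most 16.0 CPM. Other cell types were present: macrophage markers summed to 329 to 1077 CPM, stellate cell markers to 421 to 932, endothelial markers to 349 to 529 and erythrocyte markers to 93.7 to 453. Libraries fell into 2 kinds by the mitochondrial gene mt-Nd6, and the kind was spread over the times: high libraries numbered 2, 2, 2, 1, 1 and 2 from CT00 to CT20 on control and 1, 1, 1, 1, 0 and 1 on MCD. The library labelled control CT08 (a) lay apart from both others of its group for several genes described here (Egr1 at 22.1 CPM against 7.26 and 4.11, Tef at 131 against 266 and 281). Its levels of some genes whose other libraries did not overlap between the diets lay in the MCD range: Fgf21, a stress hormone of liver, stood at 16.7 CPM there, at 0.401 to 4.68 in the other control libraries and at 13.3 to 134 on MCD, and Nupr1, a stress response gene, at 7.73, 0.627 to 2.85 and 4.14 to 47.8. Its scaling factor (1.18) lay in the MCD range (0.986 to 1.28) and above those of all other control libraries (0.841 to 0.986). The counts are therefore also given without it.

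The 6 times, spaced 4 h apart, allow a component of 24 h, one of 12 h and one of 8 h to be told apart, but a 12 h component cannot be told apart from one of 6 h. The 24 h component is what the circadian clock gives most rhythmic liver genes: CLOCK and BMAL1 (the product of Arntl) switch on Per, Cry, Nr1d and the genes of the PAR bZIP factors Dbp, Tef and Hlf through E-boxes, and these proteins feed back on the loop. Rhythms of 12 h have been described in mouse liver for genes of the endoplasmic reticulum (ER), protein folding and secretion, and the unfolded protein response (UPR) factor XBP1 is known as one of their regulators. A 24 h wave that is not a pure cosine, for example one with a narrow trough, also has a 12 h component. For this reason the 24 h range is given beside the 12 h range for the main genes, and a gene is called 12 h dominant where the 12 h amplitude is the larger. Sizes are given as the range from peak to trough of the fitted component in log2 CPM, with its standard error (SE), and times as the first peak of the 12 h component in h after CT00. A gene was called where the adjusted p of the 12 h terms was under 0.05.

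The motif search was planned for called genes that were 12 h dominant over both diets, and there were none. Promoters of all 4 genes whose 12 h component was called over both diets are shown instead. The sequences are the 250 bases before the start site, from RefSeq (build GRCm38.p6), all on the plus strand, at chr15:81802423-81802672 for Tef, chr1:55052520-55052769 for Coq10b, chr7:45704997-45705246 for Dbp and chr7:113207215-113207464 for Arntl. Capitals mark an E-box (CACGTG) or a D-box (TTATGTAA, either strand).
Tef: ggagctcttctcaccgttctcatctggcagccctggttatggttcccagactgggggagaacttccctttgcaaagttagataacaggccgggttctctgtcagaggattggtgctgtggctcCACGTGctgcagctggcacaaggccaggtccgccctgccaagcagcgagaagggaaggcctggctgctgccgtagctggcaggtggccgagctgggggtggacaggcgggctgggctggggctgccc
Coq10b: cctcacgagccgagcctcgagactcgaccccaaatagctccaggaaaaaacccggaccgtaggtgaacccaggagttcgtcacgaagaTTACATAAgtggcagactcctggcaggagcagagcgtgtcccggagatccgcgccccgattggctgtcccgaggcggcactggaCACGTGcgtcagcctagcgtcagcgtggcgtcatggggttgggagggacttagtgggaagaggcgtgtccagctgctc
Dbp: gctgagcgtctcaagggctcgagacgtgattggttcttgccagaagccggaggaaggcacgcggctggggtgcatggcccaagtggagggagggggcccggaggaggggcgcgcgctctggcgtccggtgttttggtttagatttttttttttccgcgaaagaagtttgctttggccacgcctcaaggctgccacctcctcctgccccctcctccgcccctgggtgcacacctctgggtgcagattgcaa
Arntl: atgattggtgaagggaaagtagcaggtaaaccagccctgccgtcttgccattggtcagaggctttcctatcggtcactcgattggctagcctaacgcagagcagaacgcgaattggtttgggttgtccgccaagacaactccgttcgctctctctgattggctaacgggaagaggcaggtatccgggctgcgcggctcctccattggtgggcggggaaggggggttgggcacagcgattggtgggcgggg
In the 300-base window from 250 bases before to 50 after the start site, an E-box was found for Tef and Coq10b, 2 of the 4 genes, and in 7.15% of all 32851 promoters of the table. The D-box, the motif that DBP and TEF bind, was found for Coq10b alone among the 4 and in 0.938% of all promoters. The CCAAT box (ATTGG) stood in all 4 and in 37.4% of all promoters, and the Arntl sequence holds it 7 times before its start site. A RORE (TAGGTCA), added after the data were seen, was in none of the 4 and in 2.61% of all. None of the 4 held a CRE (TGACGTCA), UPRE (TGACGTGG), HSE (GAANNTTC), ETS (CCGGAAGT), NRF1 (GCATGCGC) or SRE (TCACCCCAC) motif, nor the ERSE; these were in 0.119% to 7.86% of all promoters. Both strands were read. CRE and UPRE share their first 6 letters, and the ERSE contains a CCAAT box. Of the 13 genes called on the control diet, 10 had a promoter in the table, and 4 of these (Ankrd12, Cgn, Coq10b and Lats2) held an E-box. A match describes letters, not a bound site.

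Few liver genes carried a 12 h component that passed the test. Of 20249 genes tested with edgeR's quasi-likelihood test and Benjamini-Hochberg adjustment, 13 (0.0642%) were called on the control diet, none on MCD (0%), 4 (0.0198%) over the mean of both diets, and 2 (0.00988%) for the difference between diets. In the same fit, 3611 genes (17.8%) were called for a 24 h component on control and 5704 (28.2%) on MCD, and 0 (0%) and 1 (0.00494%) for an 8 h component. At an unadjusted p under 0.05 the 12 h component had 1643 genes on control (8.11%), 793 on MCD (3.92%), 1445 over both diets (7.14%) and 991 for the difference (4.89%). The 8 h component had 775 (3.83%) and 1406 (6.94%), so the order of the diets was the opposite one. DESeq2's likelihood ratio test of the same terms called 159, 6, 107 and 8 genes, limma-voom 14, 1, 0 and 1. Leaving out single libraries moved the counts from 0 to 34 on control, 0 to 2 on MCD, 0 to 14 over both diets and 0 to 4 for the difference. With control CT08 (a) left out, the counts became 17, 1, 14 and 1.

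**Figure D1:**
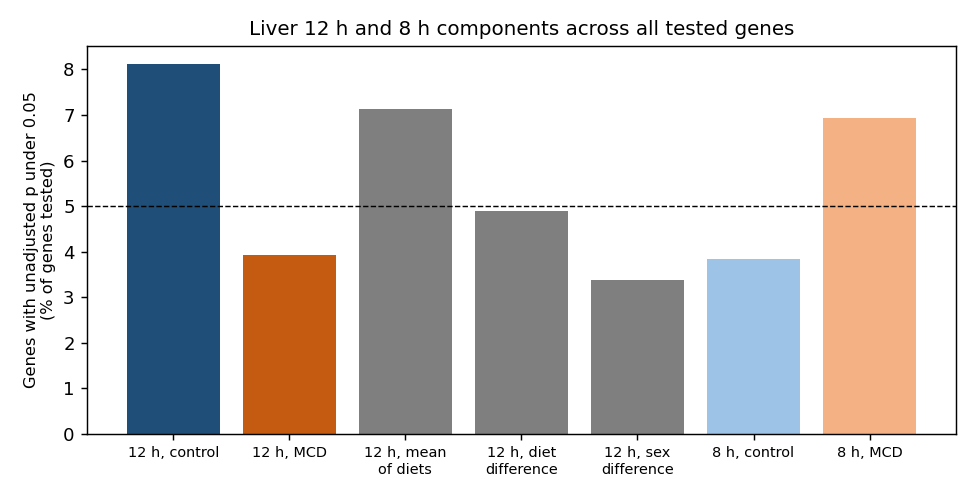
Share of the genes tested, in percent, with an unadjusted p under 0.05 (edgeR) for the 12 h component on each diet, over both diets, for the diet and sex differences, and for the 8 h component; the dashed line marks 5%. The 12 h bar is higher on control (8.11%) than on MCD (3.92%), and the 8 h bars stand the other way round (3.83% and 6.94%).

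For most genes of at least 1 CPM the data bound the 12 h range. Among these 13840 genes the median 12 h range was 0.19 log2 on control and 0.17 on MCD, with a median SE of 0.14. The upper 95% limit lay under 1 log2 in 91.0% of them on control and in 93.4% on MCD. This limit shrinks sharply where the fitted range is under its SE, and for such genes it is no firm bound. Genes with a called 24 h component had an unadjusted 12 h p under 0.05 more often than the rest: 685 of 3354 (20.4%) against 5.76% of those not called on control, and 352 of 5323 (6.61%) against 3.26% on MCD. For the 8 h component the same shares were 5.19% against 3.30% on control and 8.02% against 7.64% on MCD. The components share each gene's estimate of the spread, so these shares carry no test. In all, 127 genes had an unadjusted p under 0.05 on each diet. In 84 of them the peaks of both diets lay within 2 h, and in 13 over 4 h apart. On a 12 h cycle peaks lie at most 6 h apart, so each of these limits takes in 2 of 6 h.

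The 4 genes called over both diets were Tef, Dbp, Arntl and Coq10b (adjusted p of 0.0446 for each), and none of the 4 was 12 h dominant. In bulk liver, a lower level in each cell and fewer cells that express a gene cannot be told apart. In the order male, male, female, Dbp stood on the control diet at 0.476, 0.929 and 0.479 CPM (CT00), 23.0, 22.3 and 90.1 (CT04), 107 (a), 238 (b) and 171 (CT08), 108, 107 and 30.7 (CT12), 10.3, 9.15 and 4.57 (CT16), and 3.17, 2.51 and 2.31 (CT20). On MCD it stood at 0.301, 0.809 and 0.651 (CT00), 47.4, 84.8 and 50.8 (CT04), 145, 187 and 134 (CT08), 51.7, 57.8 and 21.4 (CT12), 4.22, 5.30 and 2.06 (CT16), and 1.89, 1.63 and 1.19 (CT20). On both diets CT00 was the lowest time, and no library at CT20 or CT04 overlapped those at CT00. The 12 h range of Dbp was 2.01 ± 0.43 log2 (SE, n = 18) on control and 2.21 ± 0.43 on MCD, beside 24 h ranges of 7.46 and 7.89. The 12 h peaks fell at 6.38 and 6.09 h, and the test of the difference between diets gave an adjusted p of 1.00 (edgeR).

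Tef, of the same transcription factor family, had the same form at a higher level. Control values were 34.1, 38.0 and 28.1 CPM (CT00), 75.8, 76.8 and 124 (CT04), 131 (a), 266 (b) and 281 (CT08), 270, 275 and 224 (CT12), 166, 148 and 155 (CT16), and 94.6, 70.4 and 73.0 (CT20). On MCD the values were 20.0, 20.9 and 18.9 (CT00), 82.2, 130 and 106 (CT04), 273, 255 and 236 (CT08), 189, 153 and 183.2 (CT12), 113, 118 and 86.1 (CT16), and 34, 45.2 and 38.5 (CT20). Groups at CT00 lay below every other group of their diet without overlap. The 12 h range was 0.59 ± 0.19 on control and 1.06 ± 0.19 on MCD, with peaks at 6.50 and 5.86 h, beside 24 h ranges of 2.74 and 3.37. On MCD alone Tef had an adjusted p of 0.393.

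Arntl, which encodes BMAL1, peaks opposite to its targets. On control it stood at 34, 34.4 and 34.1 CPM (CT00), 23.9, 27.8 and 7.39 (CT04), 2.75 (a), 2.43 (b) and 0.966 (CT08), 2.23, 1.72 and 5.90 (CT12), 21.2, 24.8 and 23.9 (CT16), and 39.8, 32.3 and 36.6 (CT20). On MCD it stood at 31.8, 31.8 and 36.4 (CT00), 8.43, 5.57 and 7.41 (CT04), 1.06, 1.01 and 0.833 (CT08), 2.88, 3.90 and 8.22 (CT12), 34.4, 31.0 and 34.3 (CT16), and 43.2, 47.9 and 46.9 (CT20). It was low at CT08 and CT12 and high from CT16 to CT00 in every library. The female control library at CT04 lay at 7.39 CPM, among the MCD libraries of that time, and its Dbp (90.1) lay above both males (23.0 and 22.3). The 12 h range of Arntl was 1.55 ± 0.36 on control and 1.41 ± 0.36 on MCD, with peaks at 3.63 and 2.50 h, beside 24 h ranges of 4.55 and 5.40.

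Coq10b encodes a coenzyme Q-binding protein of mitochondria. Its control values were 10.3, 11.2 and 11.8 CPM (CT00), 8.28, 8.00 and 11.3 (CT04), 28.4 (a), 34.6 (b) and 45.4 (CT08), 60.9, 53.7 and 36.7 (CT12), 17.7, 21.3 and 13 (CT16), and 16.1, 11.9 and 11.5 (CT20). On MCD it stood at 12.6, 11.4 and 8.90 (CT00), 17.7, 23.3 and 14.4 (CT04), 44.9, 57.1 and 34.1 (CT08), 31.4, 35.1 and 34.3 (CT12), 17, 16.2 and 14.0 (CT16), and 13, 10.5 and 15.7 (CT20). It was high at CT08 and CT12 on both diets, and no library of these times overlapped one of another time on the same diet. The 12 h range was 1.14 ± 0.19 on control, peaking at 10.2 h near the 24 h peak (11.5 h), and 0.59 ± 0.19 on MCD, peaking at 8.68 h, beside 24 h ranges of 2.24 and 1.98. Coq10b was also called on control alone (adjusted p = 0.0384) and its model overlaps those of Gm17971 and E330011M16Rik in GENCODE M21.

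**Figure D2:**
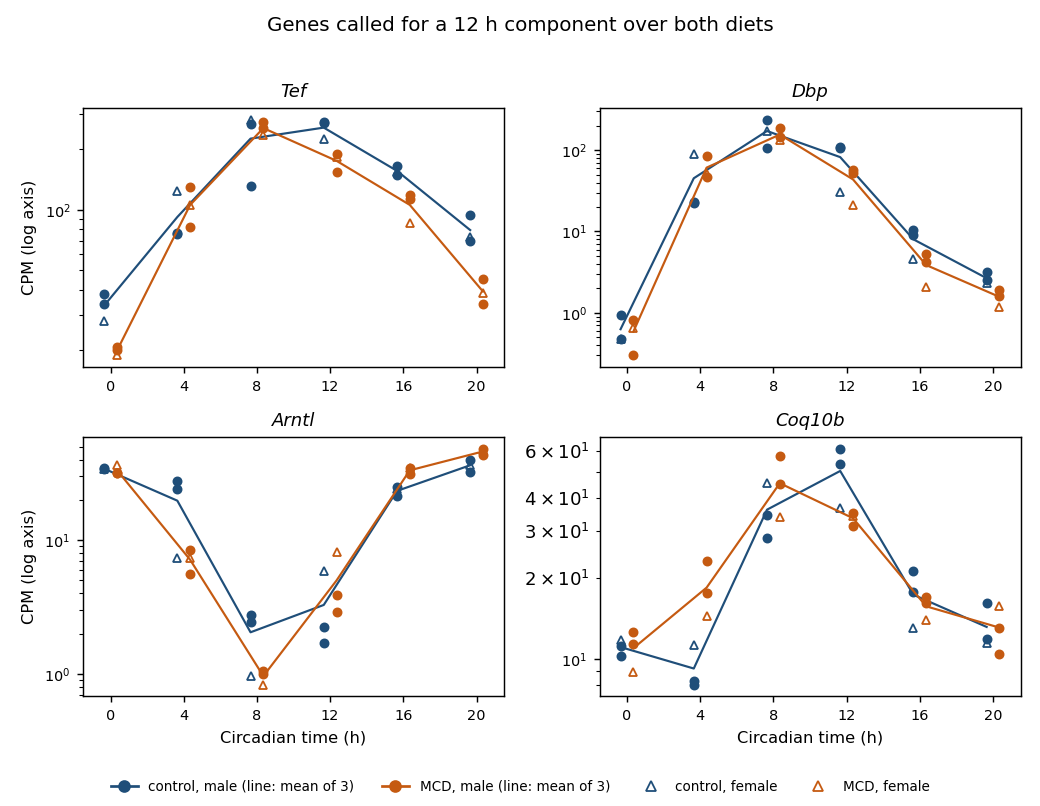
CPM on a log axis against circadian time (h) for Tef, Dbp, Arntl and Coq10b in each liver library; filled circles are males, open triangles females, and lines join the means of 3 libraries per diet. Dbp and Tef are lowest at CT00 (Dbp at 0.301 to 0.929 CPM), Arntl is low at CT08 and CT12, and Coq10b is high at these times.

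The calls over both diets lay close to the threshold. Leaving out 1 library in turn kept the call for Dbp in 11 of 36 fits, for Tef in 12, for Arntl in 9 and for Coq10b in 8, with adjusted p of at most 0.128 (edgeR). Males alone gave 7 genes (Arntl, Asap2, Cldn1, Coq10b, Dbp, Mob3b and Slc5a6), and in 6 of the 7 the peak in the 12 female libraries, which took no part in the call, lay within 2 h of the male peak. The exception was Slc5a6, a vitamin transporter, at 9.42 h in males and 7.16 h in females. Dbp peaked at 6.32 h in males and 6.12 h in females. Genes called on control in males numbered 26, of which 15 had a female control peak within 2 h. On a 12 h cycle peaks lie at most 6 h apart, so a limit of 2 h takes in 2 of these 6 h. The counts within 2 h are a description and carry no test. The test of the difference of the 12 h component between sexes called 0 genes (0%) by edgeR, DESeq2 and limma-voom, with 683 (3.37%), 722 and 722 at an unadjusted p under 0.05.

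Of the 19 core clock genes, 3 (Tef, Dbp and Arntl) were called over both diets, beside 0.0198% of all genes, and 10 on control, 9 on MCD and 12 over both diets had an unadjusted p under 0.05, beside 8.11%, 3.92% and 7.14% of all genes. None of the 19 was 12 h dominant on either diet. The 12 h amplitude ran from 0.0396 to 0.659 of the 24 h one on control (median 0.216) and from 0.0923 to 0.623 on MCD (median 0.262), with Cry2, a repressor of the loop, highest on control. Per3, a period gene not called over both diets by edgeR (adjusted p = 0.0855), had a range of 1.26 ± 0.36 on control and 1.52 ± 0.36 on MCD, beside 24 h ranges of 4.36 and 5.17. Timing depended on the scale of the values, an alternative added after the data were seen. The 12 h peak was compared with the 24 h peak or the time 12 h from it, whichever was nearer. On the log2 scale it lay within 3 h in 6 of 19 genes on control and 5 on MCD. On the linear CPM scale it did so in 16 and 14. Such a gap is at most 6 h, so a limit of 3 h takes in 3 of 6 h.

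On the control diet, 13 genes were called, of which 5 were 12 h dominant (28.1% of all genes), 8 were also called for 24 h (17.8% of all) and 11 reached 1 CPM. All 13 had a smaller 12 h range on MCD; since they were chosen for their size on control, this is a description and no test of a diet effect. In 7 of the 13 the MCD peak lay within 2 h of the control peak, where a gap can reach 6 h. On MCD 5 had an unadjusted p under 0.05, beside 3.92% of all genes. The rule for named genes gave the 4 that were 12 h dominant and of at least 1 CPM: Egr1, Gm5763, Exd1 and Nemp1.

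Egr1 is an immediate early gene, a zinc finger transcription factor induced within minutes of a stimulus. On control it stood at 3.22, 2.24 and 2.89 CPM (CT00), 17.2, 19.4 and 27.2 (CT04), 22.1 (a), 7.26 (b) and 4.11 (CT08), 4.31, 1.62 and 2.78 (CT12), 18.2, 9.43 and 2.70 (CT16), and 75.7, 74.8 and 7.27 (CT20). It was thus low at CT00 and CT12 in every library and higher at CT04 and CT20, with the female at CT16 and CT20 well below both males. On MCD it stood at 44.8, 22.2 and 27.9 (CT00), 27.7, 16.9 and 25.4 (CT04), 4.76, 11.8 and 11.8 (CT08), 28.1, 47.7 and 27.6 (CT12), 57.3, 100 and 63.1 (CT16), and 84.2, 119 and 89.5 (CT20), a single wave with its low at CT08. The control 12 h range was 3.29 ± 0.56 log2 (peak 6.30 h, adjusted p = 0.0384, edgeR) beside a 24 h range of 1.2; on MCD the ranges were 0.57 ± 0.56 and 2.99. The diet difference of the 12 h component was not called by edgeR (adjusted p = 0.714) and was called by DESeq2. At CT00, MCD libraries lay at 22.2 to 44.8 CPM and control ones at 2.24 to 3.22, without overlap.

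Exd1 encodes a protein of the small RNA pathway that silences transposons. Control livers held it at 3.58, 3.82 and 2.86 CPM (CT00), 2.01, 2.41 and 2.66 (CT04), 1.54 (a), 1.81 (b) and 1.82 (CT08), 8.54, 6.31 and 4.02 (CT12), 2.06, 2.62 and 2.06 (CT16), and 2.15, 2.53 and 3.42 (CT20). The main peak was at CT12 in all 3 libraries, with a smaller one at CT00 that overlapped CT20 through its female. On MCD it stood at 1.00, 1.26 and 0.946 (CT00), 1.42, 2.13 and 0.991 (CT04), 2.71, 3.58 and 2.38 (CT08), 2.53, 1.94 and 1.70 (CT12), 1.75, 1.59 and 1.09 (CT16), and 0.906, 0.922 and 0.430 (CT20). The control 12 h range was 1.36 ± 0.21 (peak 0.156 h, adjusted p = 0.0376) and that on MCD 0.04 ± 0.21, beside 24 h ranges of 0.45 and 1.69. On MCD the gene was called for 24 h alone (adjusted p = 8.65e-06), and the diet difference of the 12 h component was not called by edgeR (adjusted p = 0.913).

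Nemp1 encodes a protein of the inner nuclear membrane; its model overlaps Nab2 on the other strand. The control values were 3.44, 2.71 and 2.91 CPM (CT00), 8.65, 10.2 and 7.26 (CT04), 8.60 (a), 3.72 (b) and 5.66 (CT08), 2.39, 3.11 and 4.87 (CT12), 4.56, 4.60 and 5.38 (CT16), and 5.81, 5.69 and 6.92 (CT20). It was highest at CT04 and lowest at CT00 and CT12, with CT08 spread over the range. The MCD libraries ran from 4.59 to 8.62 CPM with no time apart from the rest. The 12 h range was 1.29 ± 0.20 on control (peak 5.77 h, adjusted p = 0.0376) and 0.08 ± 0.20 on MCD. The upper 95% limit on MCD was 0.205, but such a limit shrinks where the fitted range is under its SE, so it is no firm bound.

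Gm5763, a processed pseudogene in GENCODE M21, was the gene of at least 1 CPM called for a difference between the diets (adjusted p = 0.0119, edgeR). Reads of a processed pseudogene can come from its parent gene, so its counts are uncertain. On control it stood at 3.42, 2.50 and 1.83 CPM (CT00), 1.81, 2.29 and 1.37 (CT04), 1.15 (a), 1.26 (b) and 0.826 (CT08), 3.17, 1.68 and 1.80 (CT12), 2.82, 2.64 and 1.92 (CT16), and 1.12, 0.696 and 1.11 (CT20). On MCD it stood at 0.716, 1.24 and 1.07 (CT00), 1.53, 1.68 and 0.979 (CT04), 2.19, 3.40 and 1.79 (CT08), 1.53, 1.5 and 0.827 (CT12), 1.32, 1.43 and 0.817 (CT16), and 1.98, 1.14 and 1.04 (CT20). Control libraries were low at CT08 and CT20 and MCD libraries highest at CT08, so the diets moved against each other. The 12 h range was 1.48 ± 0.22 with a peak at 1.78 h on control and 0.80 ± 0.22 with a peak at 7.5 h on MCD, a difference of 2.27 ± 0.31 as the range of the difference wave. The call for the difference held in 35 of 36 fits with 1 library left out and was lost without control CT20 1 (adjusted p = 0.0519), and it also held by DESeq2 and limma-voom. It was lost, among other alternatives, with library totals alone, with no term for sex, and without all libraries numbered 1, 2 or 3.

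**Figure D3:**
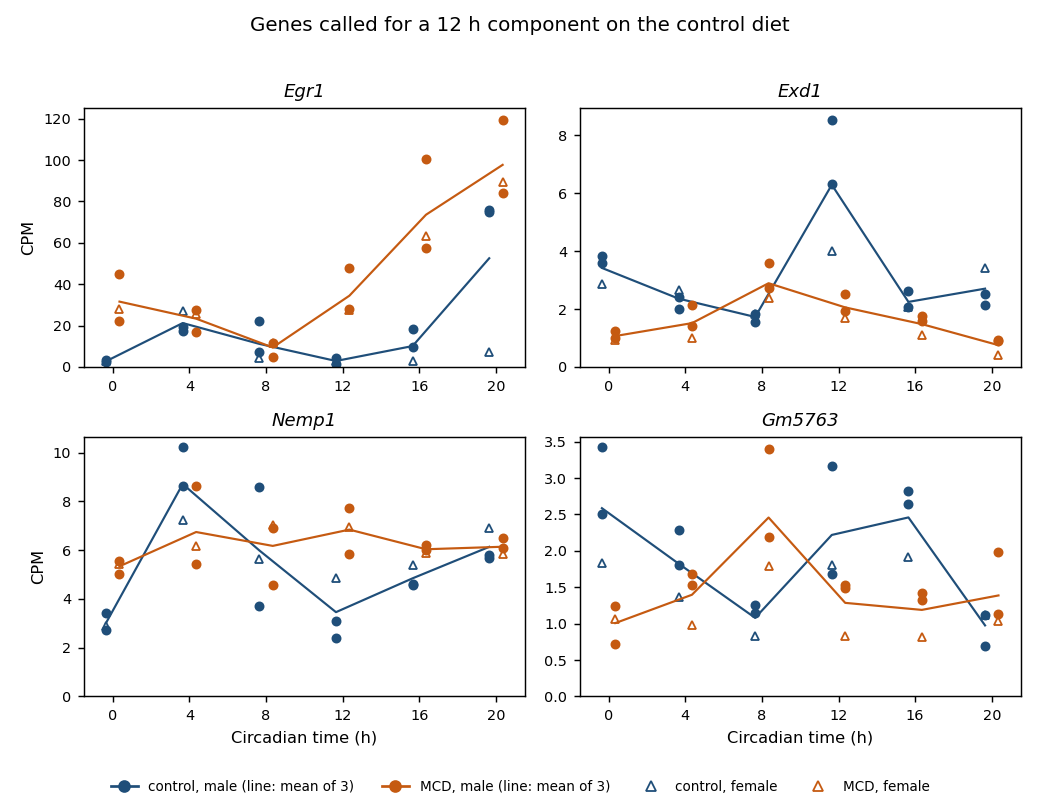
CPM against circadian time (h) for Egr1, Exd1, Nemp1 and Gm5763 in each liver library; filled circles are males, open triangles females, and lines join the means of 3 libraries per diet. On control Egr1 and Nemp1 are low at CT00 and CT12, Exd1 is high at CT12, and Gm5763 is low at CT08 on control where it is highest on MCD.

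Cldn1, Cgn and Hjv, also called on control, had the larger component at 24 h. Cldn1, the tight junction protein claudin 1, had means from CT00 to CT20 of 151 ± 21.4, 162 ± 45.3, 80.4 ± 29.8, 36 ± 9.74, 120 ± 22.9 and 155 ± 26.7 CPM (SD, n = 3). Its 12 h range was 1.06 ± 0.19 beside a 24 h range of 1.90. Cgn, which encodes the tight junction protein cingulin, stood at 71.4 ± 7.04, 59.5 ± 6.23, 32.3 ± 3.19, 28.5 ± 2.68, 66.4 ± 8.70 and 70.4 ± 1.70 CPM over the same times, with a 12 h range of 0.587 ± 0.105 beside a 24 h range of 1.41. Hjv, hemojuvelin, a coreceptor that controls hepcidin and iron, had a 12 h range of 0.56 ± 0.09 beside a 24 h range of 0.83, with CT08 (79.3 ± 4.33 CPM) and CT12 (70.0 ± 4.83) below the means of all other times. All 3 had their lowest control means at CT08 and CT12, and on MCD their 12 h ranges were 0.34, 0.21 and 0.17.

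Lats2, a kinase of the Hippo pathway, had little spread: on control it stood at 15.8 ± 1.11 CPM at CT04 and 25.9 ± 0.66 at CT12, with 19.3 to 20.2 at the other times. Its 12 h range was 0.39 ± 0.06 on control, peaking at 11.2 h, and 0.22 ± 0.06 on MCD, peaking at 2.89 h; the difference was not called by edgeR (adjusted p = 0.179) and was called by DESeq2. Ankrd12, an ankyrin repeat gene, had 0.60 ± 0.10 and 0.29 ± 0.10. Ralgps1, an exchange factor for Ral GTPases, had 0.91 ± 0.16 on control, from 4.75 ± 0.29 CPM at CT12 to 19.1 ± 6.17 at CT20, while the MCD means of all times lay between 6.85 and 7.43. None of these 3 genes was 12 h dominant on control. Over both diets the 24 h ranges of Lats2, Ankrd12 and Ralgps1 were 0.38, 0.64 and 0.78, beside 12 h ranges of 0.19, 0.40 and 0.48. Thbs3 and the lincRNA Gm15348 were under 1 CPM. Gm15348 and Gm26876, the other gene called for the diet difference, were at 0 in all 3 libraries of some groups, so their fitted log2 ranges depend on the prior count and are not given.

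Calls on control depended on single libraries. With 1 library left out, 10 of 36 fits called no gene, namely those without control CT00 2, CT00 3, CT04 1, CT04 2, CT12 1, CT16 1 or CT20 2 and without MCD CT00 2, CT16 1 or CT16 2. The fit without the female control CT08 3 called 34 and that without control CT04 3 called 24, each with all 13 among them. Without every library numbered 1 or every one numbered 2 no gene was called, and males alone gave 26, with 5 of the 13 among them. Peak times moved by at most 0.937 h for any of the 13 genes over these and the other alternatives. Peg13, named by the rule as the lowest p among 12 h dominant genes not called, had a control range of 0.48 ± 0.08 (adjusted p = 0.0561).

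**Figure D4:**
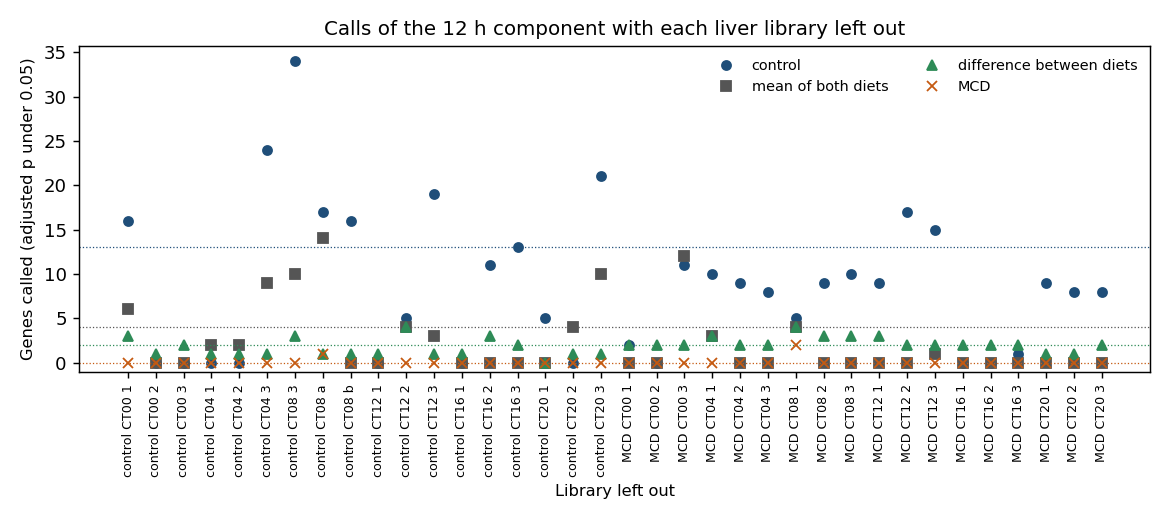
Number of genes called for the 12 h component (adjusted p under 0.05, edgeR) with each liver library left out, for control, MCD, the mean of both diets and their difference; dotted lines mark the counts with all 36 libraries (13, 0, 4 and 2). Control counts run from 0 to 34 and MCD counts from 0 to 2.

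On MCD no gene was called, with 793 genes (3.92%) at an unadjusted p under 0.05, 6 called by DESeq2 (Dbp, Tef, Fcna, Mup-ps18, Gm26876 and Gm45301) and 1 by limma-voom (Gm45225). The rule named 5 genes of low p that were 12 h dominant. Fcna, which encodes ficolin A, a lectin of macrophages, stood at 49.0 ± 6.85, 44.8 ± 5.60, 56.2 ± 3.03, 43.6 ± 2.81, 49.7 ± 4.24 and 59.3 ± 0.91 CPM from CT00 to CT20, a range of 0.42 ± 0.08. Maf, a transcription factor, had 0.36 ± 0.08 and Eif4a3, of the exon junction complex, 0.30 ± 0.07. Mup-ps18 and Sult3a1, a pseudogene of major urinary proteins and a sulfotransferase of females, had values that spread widely within groups. Mup-ps18 stood on MCD at 182 and 32.6 CPM in the males and 0.222 in the female at CT08, and Sult3a1 was at 0 in both males at CT08 and at 2.13 in the female.

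Over both diets, the 12 h dominant genes of lowest p were not called by edgeR. DESeq2 called 107 genes over both diets, 40 of them 12 h dominant, with Yrdc, Car14 and Alg2 among those called. Yrdc, a tRNA-modifying enzyme, had a range of 0.65 ± 0.13 on control (peak 11.2 h) and 0.36 ± 0.13 on MCD (10.8 h), with an adjusted p of 0.0838. Car14, a membrane carbonic anhydrase, had 0.58 ± 0.12 (5.24 h) and 0.33 ± 0.12 (5.39 h), with the same adjusted p. In both diets its lowest mean was at CT12, at 27.1 ± 2.46 CPM on control and 29.6 ± 2.45 on MCD. Alg2, a mannosyltransferase that builds the N-glycan precursor in the ER, had 0.77 ± 0.18 (10.0 h) and 0.59 ± 0.18 (9.0 h) with an adjusted p of 0.0855. The others were Sash1, Rad54l2, Aoc2, Whamm, Nemp1, Sphk2 and Etl4, with adjusted p from 0.116 to 0.196. Sphk2 overlaps Dbp on the other strand, so its reads and those of Dbp may be mixed where counting did not use the strand, which the sources used here do not state.

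Genes of the ER and secretory pathway, the group best known for 12 h rhythms in liver, had no called member on either diet by edgeR, and DESeq2 called 1 N-glycosylation gene on control. With all libraries, their fitted 12 h ranges were larger on MCD than on control in most members, and most MCD peaks lay close together. In males alone the range was larger on MCD in 10 of 33 ER chaperone and UPR genes. The MCD peak there lay from 8 to 11 h in 25 of 49 transport and 13 of 27 N-glycosylation genes. Of 49 genes of secretory transport (translocon, signal recognition, COPI and COPII coats and cargo receptors), 18 had an unadjusted p under 0.05 on MCD, beside 3.92% of all genes, and 1 on control, beside 8.11%. The median range was 0.28 log2 on MCD and 0.11 on control, and 41 of 49 had the larger range on MCD, beside 44.0% of all genes. In 42 of 49 the MCD peak lay from 8 to 11 h, beside 22.2% of all genes, and in 4 of 49 on control, beside 22.3%. The window from 8 to 11 h was not among the settings planned beforehand, so counts within it are a description and no test. On MCD 8 of 49 were 12 h dominant, beside 23.0% of all genes, and 30 of 49 were called for 24 h, beside 28.2%. The diet difference had an unadjusted p under 0.05 in 6 of 49 transport, 4 of 27 N-glycosylation and 1 of 33 ER genes, beside 4.89% of all genes, and was called by edgeR in none.

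Of 27 genes of N-glycosylation, 7 had an unadjusted p under 0.05 on MCD and 1 on control, and 18 peaked from 8 to 11 h on MCD and 7 on control. Of 33 ER chaperone and UPR genes, 4 (Xbp1, Hsp90b1, Calr and Derl3) did on MCD and 3 (Eif2ak3, Dnajb9 and Ero1a) on control, beside 3.92% and 8.11% of all genes, and 30 peaked from 8 to 11 h on MCD beside 5 on control. Their median range was 0.46 log2 on MCD and 0.19 on control, and 11 of 33 were 12 h dominant on MCD, beside 23.0% of all genes.

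Named members show the size of these waves against their spread. Srpr, the receptor of the signal recognition particle, stood on MCD at 270, 205 and 238 CPM (CT00), 193, 256 and 222 (CT04), 256, 268 and 254 (CT08), 264, 197 and 173 (CT12), 152, 153 and 133 (CT16), and 197, 165 and 207 (CT20). It was low at CT16, with CT08 above CT16 and CT20 in every library; the range was 0.40 ± 0.12 (peak 10.0 h, unadjusted p = 0.00871) and 0.08 ± 0.12 on control, beside 24 h ranges of 0.64 and 0.31. Xbp1 stood on MCD at 197, 197 and 163 CPM (CT00), 148, 182 and 146 (CT04), 230, 216 and 164 (CT08), 199, 125 and 124 (CT12), 192, 176 and 156 (CT16), and 237, 241 and 221 (CT20). Its highs at CT08 and CT20 lay 12 h apart, and CT08 overlapped its neighbours; the range was 0.52 ± 0.16 (peak 7.93 h, unadjusted p = 0.00926) and 0.27 ± 0.16 on control, beside 24 h ranges of 0.32 and 0.11. Lman1, a cargo receptor from ER to Golgi, had 0.39 ± 0.12 on MCD with a 24 h range of 0.12, against 0.20 ± 0.12 and 0.53 on control. Calr, the ER lectin chaperone calreticulin, had 0.57 ± 0.23 and 0.19 ± 0.23. Hspa5, the chaperone BiP, had 0.51 ± 0.32 and 0.24 ± 0.32; its control libraries at CT20 spread from 393 CPM in the female to 1438 and 2051 in the males.

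**Figure D5:**
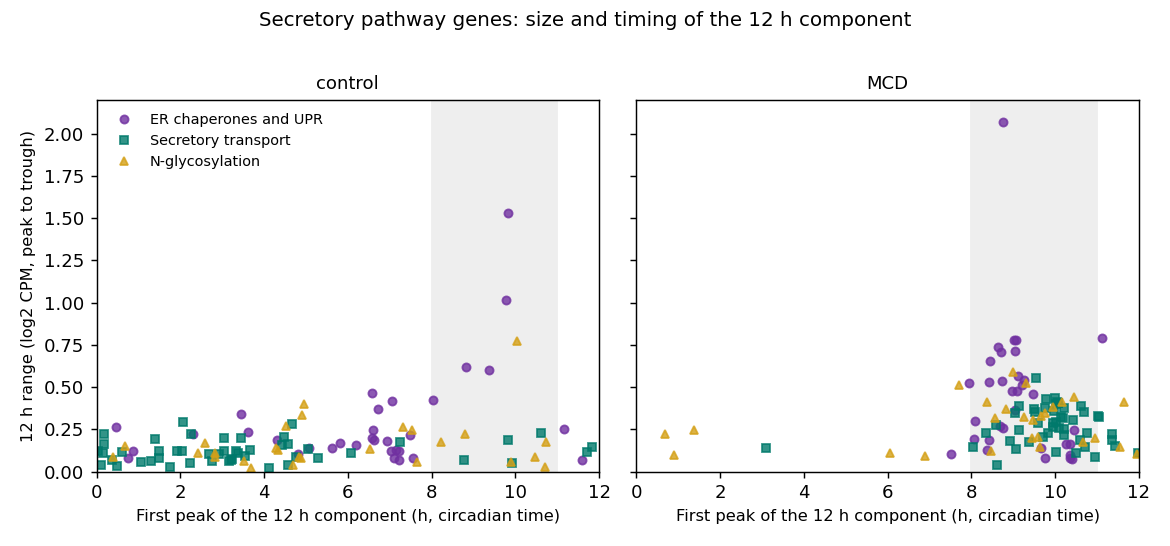
12 h range (log2 CPM, peak to trough) against the first 12 h peak (h) for the members of 3 lists, ER chaperones and UPR, secretory transport and N-glycosylation, on control (left) and MCD (right); each point is 1 gene and the shaded band spans 8 to 11 h. On MCD 42 of 49 transport genes and 30 of 33 ER genes lie in the band, on control 4 and 5. The band was not among the settings planned beforehand.

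These members share libraries, so they are not independent, and single libraries weighed on them. With 1 library left out, the number of transport genes at an unadjusted p under 0.05 on MCD ran from 6 (without MCD CT04 1) to 25 (without control CT20 3), and the number that peaked from 8 to 11 h from 35 to 46. For the ER list the first number ran from 1 (without MCD CT08 3) to 15 (without control CT20 3), and for N-glycosylation from 2 (without MCD CT04 1) to 11 (without control CT20 3). The share of all genes at that p on MCD was 3.845% without MCD CT04 1, 5.02% without MCD CT08 3 and 4.39% without control CT20 3. Library totals alone in place of the scaling gave 9 transport genes, beside 3.6% of all genes. Of the 49, 34 then peaked from 8 to 11 h on MCD, beside 16.2% of all genes, and 18 on control. The fit without replicate 1 gave 2 transport genes, beside 1.67% of all genes. Without replicate 1 the control peaks from 8 to 11 h numbered 19 of 33 ER genes (26 on MCD), 13 of 27 N-glycosylation genes (16) and 12 of 49 transport genes (38). In that fit 21.8% of all genes peaked there on MCD. In males alone 19 transport genes passed on MCD, beside 6.34% of all genes, and 25 of 49 peaked from 8 to 11 h, beside 21.05%. Of the 33 ER genes 2 passed on MCD and 9 on control, beside 6.34% and 10.5% of all genes. In 10 of the 33 the range was larger on MCD, beside 43.0% of all genes. The kind of library as a term left 15 transport genes, beside 4.28% of all genes.

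Of 22 cholesterol synthesis genes 18 peaked from 8 to 11 h on MCD and 0 on control, with 0 and 1 at an unadjusted p under 0.05. The count of 18 rested on 1 library: without MCD CT04 1 it was 1. On control, unadjusted p under 0.05 was found for 8 of 26 fasting and glucocorticoid genes, 6 of 25 immediate early genes, 4 of 26 heat shock genes, 4 of 25 integrated stress response genes and 4 of 21 feeding and lipid synthesis genes, beside 8.11% of all genes; on MCD the counts were 2, 1, 1, 0 and 0, beside 3.92%. With 1 library left out, the control counts ran from 5 to 10, 3 to 9, 3 to 8, 3 to 7 and 3 to 8, and the MCD counts from 1 to 4, 0 to 5, 1 to 4, 0 to 2 and 0 to 2. The MCD count of 5 immediate early genes was found without control CT08 (a). Egr1 was the called member among them. Cyp4a10, a fatty acid hydroxylase, had 1.98 ± 0.55 on control and 0.26 ± 0.55 on MCD, and Hspa4l, a chaperone of the HSP110 family, 0.84 ± 0.18 and 0.27 ± 0.18. Gpam, the first enzyme of glycerolipid synthesis, had 1.2 ± 0.30 and 0.32 ± 0.30, and Mthfd2, a mitochondrial folate enzyme, 1.44 ± 0.41 and 0.42 ± 0.41. The diet difference was called for none of these 4 by edgeR (adjusted p of 0.953 for each). Translation initiation had 1 and 5 of 27, splicing and cold-inducible RNA binding 0 and 3 of 25, and bile acid and sterol oxidation 2 and 2 of 19. Hepatocyte markers had 0 of 10 on either diet, and macrophage, lymphocyte and erythrocyte markers none. Of 10 pancreas and adipose markers only the pancreatic Cela1 and Cela2a were tested, so adipose tissue was not checked. Stellate cell markers had 1 and 0 of 10, endothelial markers 0 and 1 of 8 and cholangiocyte markers 0 and 1 of 6.

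In the SCN, fitted the same way over 15759 genes, 3 genes (0.019%) were called on control, 5 (0.0317%) on MCD and 35 (0.222%) over both diets. Of these 35, 29 were tested in liver and 1 had an unadjusted p under 0.05 there, beside 7.14% of all liver genes, and none was called in both tissues by edgeR. Among the SCN genes were the immediate early genes Jun (12 h range 0.95, peak 11.9 h) and Npas4 (3.06, 0.0462 h), Strip2 (1.44, 9.45 h), Gadd45g, a stress-induced gene (0.79, 11.8 h), and Rgs16, a regulator of G protein signalling (0.55, 11.3 h). In 10 of the 35 the 12 h range was above the 24 h range, as for Jun (24 h range 0.30) and Npas4 (1.29) and not for Strip2 (2.17), Gadd45g (1.02) or Rgs16 (2.61). Egr1 had 0.35 in SCN and an adjusted p of 1.00 there. A test of the tissue difference over all 72 libraries called 6 of 14491 genes (0.0414%): Dbp, Celf3, Car14, Arntl, Coq10b and Rhou. Celf3 did not pass the filter on low counts in liver alone and entered through the SCN, so its call is no comparison of rhythms. Dbp had a mean 12 h range of 2.10 log2 in liver and 0.30 in SCN, beside 24 h ranges of 7.63 and 2.83, and Arntl 1.42 and 0.19.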

How the data were processed

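RNA was measured by stranded poly-A RNA-seq in 36 liver and 36 SCN libraries, per the labels' protocols. The deposited tables hold raw read counts per gene, per the file headers and their whole-number values; Trimmomatic, HISAT2, StringTie, DESeq2 and GRCm39 are named, per the submitters' processing notes, and their settings and versions are not stated there. No other column of sample values was left unused. Gene models and overlaps came from GENCODE M21 (GRCm38), used for gene types and overlaps, and promoters from RefSeq (GRCm38.p6).

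From the counts, edgeR 4.0.16 (R 4.3.3) was run with TMM scaling, filterByExpr (minimum count 10) and the robust quasi-likelihood fit of 12 groups of diet and time plus sex, with 23 residual degrees of freedom. The 12 h cosine and sine terms were tested together (2 degrees of freedom) with Benjamini-Hochberg adjustment over all genes. Ranges and peaks came from least squares on log2 CPM (prior count 2), with the upper 95% limit from the noncentral F distribution. DESeq2 1.42.0 and limma 3.58.1 (limma-voom) were alternatives. The scripts were tested on simulated data. Depth was 52.6 to 86.7 M counts in liver and 23.4 to 79.8 M in SCN.

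Named genes were the 12 h dominant called genes of at least 1 CPM with the largest range, those of lowest p where fewer than 5 were called, the 10 lowest p over both diets, the clock genes and the members of the lists; the other genes called and the list members shown with values were chosen after their values were seen. The comparison, lists and motifs were chosen with earlier results of these data known. Groups share replicate numbers, but same-numbered libraries were not paired: their deviations correlated at 0.0697 to 0.432 over 16 pairs, above 0.1 in 13. The protocol text speaks of males, while the labels name females for number 3; the labels were used.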

Additional observations from a re-analysis of the deposited data

Results flagged for a closer look

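Between the diets, the 12 h component differed for Gm5763 (adjusted p = 0.0119, edgeR) and for Gm26876, a lincRNA (adjusted p = 0.0261). Gm26876 had a mean of 0.140 CPM, was at 0 in all 3 control libraries at CT08 and in all 3 MCD libraries at CT00, CT04, CT12 and CT16, and overlaps Ikzf4 on the other strand. Its call held in 22 of 36 fits with 1 library left out and in 2 of 11 other alternatives, DESeq2 and no filter on low counts.

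Between liver and SCN, the 12 h component over both diets differed for 6 genes by edgeR: Dbp (adjusted p = 0.000172), Celf3 (0.000835), Car14 (0.00132), Arntl (0.00496), Coq10b (0.00496) and Rhou (0.0114). Celf3 did not pass the filter on low counts in liver alone, so its call is no comparison of rhythms. Car14 had a range of 0.45 log2 with a peak at 5.29 h in liver and of 0.96 with a peak at 0.735 h in SCN. Rhou had 0.44 at 4.63 h and 0.21 at 11.1 h. Neither Car14 nor Rhou was called over both diets in liver (adjusted p = 0.0838 and 0.187, edgeR) or in SCN (0.115 and 0.827). Car14 had a mean of 4.51 CPM in SCN. Coq10b had 0.80 in liver and 0.12 in SCN. The tissues were sampled and prepared in different ways, and the part of this in the differences was not tested.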

How the results depend on the processing

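The diet order of the ER chaperone and UPR list reversed: 25 of 33 members had the larger range on MCD, beside 44.0% of all genes. Without replicate 3 it was 10 of 33, beside 43.0%. Counts of genes called on control, on MCD, over both diets and for the diet difference (13, 0, 4 and 2) became 159, 6, 107 and 8 by DESeq2, 8, 1, 5 and 0 with library totals alone, 14, 1, 0 and 1 by limma-voom, 21, 0, 4 and 1 with a term for library kind, 7, 0, 4 and 0 with no term for sex, and 0, 0, 3 and 1 with the 24 h and 12 h terms alone. Without replicates 1, 2 or 3 they ran from 0 to 26, 0 to 0, 0 to 7 and 0 to 0, and with single libraries left out from 0 to 34, 0 to 2, 0 to 14 and 0 to 4. The sex difference stayed at 0 in all fits run and could not be fitted without replicate 3. With the replicate block, which the check of the pairing did not call for, the counts were 20, 1, 20 and 0, so the diet difference of Gm5763 was not called. In the SCN, limma-voom gave 1 gene on control and 3 on MCD, and leaving out a replicate number gave 0 to 9 and 0 to 7, with the diet order of 3 and 5 turned to 2 and 0 without replicate 1 and to 9 and 7 without replicate 3. For the tissue difference, limma-voom gave 2, leaving out a replicate number 0 to 13 and the replicate block 14. By edgeR, list members called on control or MCD numbered 1 (Egr1), 2 with library totals alone and 2 without control CT08 (a); of the clock, ER, transport and N-glycosylation lists DESeq2 called 3 clock genes and 1 N-glycosylation gene on control and 2 clock genes on MCD. Motif searches covered 0 called genes that were 12 h dominant over both diets and 4 with all called genes. Causes were not tested. As for what could be detected, the median SE of a 12 h range was 0.14 log2.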

Other observations

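Peak times of genes with an unadjusted 12 h p under 0.05 and at least 1 CPM were not even. On control, of 1289 such genes, 295 peaked from 0 to 2 h, 84 from 2 to 4 h, 298 from 4 to 6 h, 216 from 6 to 8 h, 116 from 8 to 10 h and 280 from 10 to 12 h. On MCD, of 630, the numbers were 101, 49, 112, 131, 58 and 179. Genes share libraries, so these counts describe the libraries and carry no test.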
